A study of Mus musculus with 2 samples.

Results

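Zonated hepatocyte genes are genes whose transcript level in a hepatocyte depends on where the cell lies between the portal tract and the central vein of the liver lobule. The 10 genes were chosen by name: 6 central genes (Cyp2e1, Cyp1a2, Cyp2c29, Cyp3a11, Glul and Oat) and 4 portal genes (Arg1, Cps1, Pck1 and Hpd), of 31057 genes in each count table. All 10 were found in both tables. Hepatocytes next to the central vein receive Wnt signals from its endothelium and are known for drug-metabolising cytochrome P450 enzymes and for glutamine synthesis. Hepatocytes near the portal tract are known for urea synthesis, gluconeogenesis and amino acid breakdown. Carbon tetrachloride is toxic after it is activated by Cyp2e1, and the injury it causes is greatest around the central vein.

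The data were 2 droplet libraries of UMI counts, which tag the 3′ end of each transcript, 1 from control mice and 1 from mice with cirrhosis. All mice were C57BL/6, 16 weeks old and of genotype Cdh5-Cre+, mTmG +/+, so a Cre under an endothelial promoter turned the membrane reporter from tdTomato to GFP in endothelial cells. The cirrhosis mice had inhaled vaporised carbon tetrachloride over 12 weeks. Livers of 3 mice were pooled per group, hepatocytes were spun out of the collagenase suspension, and live GFP-positive cells were sorted. A hepatocyte should thus have been left out at both steps, and the hepatocyte-like barcodes are those that remained, which limits them as a sample of the lobule.

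There were 5642 barcodes with 45767322 UMIs in control and 8327 barcodes with 77339928 UMIs in cirrhosis, and 17 barcode sequences occurred in both. After filters, 366 control and 1049 cirrhosis barcodes were hepatocyte-like, and 3628 and 4043 were endothelial-like. The 15 common hepatocyte genes, which are not zonated members, took 9.48% of UMIs in control and 13.0% in cirrhosis hepatocyte-like barcodes, against 0.144% and 0.184% in endothelial-like cells. The same genes were the hepatocyte markers by which the classes were named, so the contrast between the classes was set in part by the naming. A UMI of eGFP was found in 21.9% of control and 11.6% of cirrhosis hepatocyte-like barcodes, and in 97.0% and 95.2% of endothelial-like cells. The hepatocyte-like barcodes were shallow, with medians of 1440 and 1776 UMIs. Of the control hepatocyte-like barcodes, 330 lay in 1 sub-cluster led by Mup genes, and of the cirrhosis ones, 1042 lay in another led by Hamp and Orm1, so different sub-clusters hold most of each library. The endothelial-like class was uneven too: it took in 268 control and 3 cirrhosis barcodes of a cluster led by Mup17, Mup11 and Cyp2e1, 8 and 549 of one led by the stress genes Derl3, Nupr1 and Ddit3, and 46 and 65 of one led by collagen genes. The Mup-led cluster held 69.4% of the control class's UMIs of common hepatocyte genes, and the Derl3-led cluster 70.6% of the cirrhosis class's. Clustered again alone, the endothelial-like class gave a cluster of 236 control and 102 cirrhosis barcodes led by Dcn and collagen genes. It also gave a cluster of 0 control and 45 cirrhosis barcodes led by Derl3, with a median of 2144 UMIs. In that cluster hepatocyte markers took 0.70% of UMIs and endothelial markers 0.055%. Since each group is 1 library, differences between groups were not tested and have no replicate behind them. The 95% intervals cover counting error only.

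In hepatocyte-like barcodes the 6 central genes did not share 1 direction. Glul, Oat and Cyp2e1 were lower in the cirrhosis library by 3.83-fold to 16.7-fold, Cyp2c29 and Cyp3a11 were higher by 7.39-fold and 3.95-fold, and Cyp1a2 was 1.86-fold higher. The 4 portal genes differed by less than 2-fold. Thus 3 of 10 members were at least 2-fold lower and 2 were at least 2-fold higher. Of all 4392 genes with a mean of at least 20 CPM (UMIs of a gene per 1000000 UMIs of the class) over the libraries, 9.45% were at least 2-fold lower and 4.96% at least 2-fold higher, and the median log2 ratio was -0.03. All 10 members passed that minimum.

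Glul encodes glutamine synthetase, which fixes ammonia into glutamine in the last cells before the central vein. It stood at 632.4 CPM (interval 579.1 to 689.4) in control and at 38.0 CPM (31.4 to 45.6) in cirrhosis hepatocyte-like barcodes, a log2 ratio of -4.06 (-4.36 to -3.76). The highest count in 1 barcode was 49 UMIs in control and 4 in cirrhosis. With each barcode thinned to 1000 UMIs, 20.7% of 242 control and 2.36% of 763 cirrhosis barcodes held a Glul UMI, against 22.7% and 8.77% without thinning. The thinned share in T or NK cell-like barcodes, which are not hepatocytes, was 7.25% and 4.10%, so the hepatocyte-like share of the cirrhosis library lay under that of another cell type.

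Oat encodes ornithine aminotransferase, which breaks down ornithine in the same cells. It stood at 461.2 CPM (415.8 to 510.2) in control and 42.6 CPM (35.6 to 50.5) in cirrhosis, a log2 ratio of -3.44 (-3.74 to -3.15). Its highest count in 1 barcode was 85 UMIs in control and 11 in cirrhosis. The thinned share of barcodes with a UMI was 16.9% and 3.93%, and that of T or NK cell-like barcodes was 2.29% and 3.69%. Endothelial RNA, as read from endothelial markers, made up 10.9% of control and 4.74% of cirrhosis hepatocyte-like UMIs, which at the endothelial level would bring 41.8 and 20.3 CPM of Glul and 6.96 and 2.58 CPM of Oat.

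Cyp2e1 encodes the ethanol-inducible P450 that activates carbon tetrachloride. It was at 589.6 CPM (538.2 to 644.7) in control and 153.9 CPM (140.3 to 168.5) in cirrhosis, a log2 ratio of -1.94 (-2.12 to -1.75). Among barcodes with no endothelial marker UMI the log2 ratio was -0.67, under 2-fold. The thinned share of barcodes with a UMI was 30.2% in control and 12.6% in cirrhosis, and the unthinned share in T or NK cell-like barcodes, which were deeper, was 3.41% and 0.813%.

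The remaining P450 genes were at higher levels in cirrhosis. Cyp2c29, a P450 of the steroid and drug oxidising 2C group, was at 236.1 CPM (204.0 to 271.9) in control and 1744 CPM (1697 to 1791) in cirrhosis, a log2 ratio of 2.88 (2.68 to 3.10). Cyp3a11, the main mouse drug-metabolising P450 of the 3A group, was at 456.3 CPM (411.2 to 505.0) and 1804 CPM (1757 to 1852), a log2 ratio of 1.98 (1.83 to 2.14). More barcodes held them: the thinned share was 14.5% against 51.9% for Cyp2c29 and 20.7% against 64.5% for Cyp3a11. Cyp1a2, the caffeine-oxidising P450, was at 189.6 CPM (160.9 to 221.9) and 352.3 CPM (331.6 to 374.0), a log2 ratio of 0.89 (0.65 to 1.15) that was 2.23 among barcodes with no endothelial marker UMI. Reads shared with near-identical paralogs make values of the 2C and 3A groups uncertain. Of the 10 paralogs measured, 6 were higher in cirrhosis with an interval above 0, 1 was lower and 3 had an interval that holds 0. Of all 4392 genes, 2089 were higher and 2297 lower in cirrhosis with no demand on the interval, a looser criterion than that used for the paralogs. The higher paralogs were Cyp2c55 at 2.45 and 57.3 CPM, Cyp2c68 with a log2 ratio of 1.03, Cyp3a13 with 0.79, Cyp2c23 and Cyp2c50 with 0.77 each and Cyp2c70 with 0.60. Cyp2c67 was lower, at 144.4 and 79.2 CPM, and Cyp3a25 was at 110.1 and 100.2 CPM.

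The 4 portal genes differed less. Arg1, the last enzyme of the urea cycle, was at 1491 CPM (1409 to 1577) in control and 1364 CPM (1323 to 1406) in cirrhosis, a log2 ratio of -0.13 (-0.22 to -0.036). Cps1, which makes carbamoyl phosphate for that cycle, was at 206.7 CPM (176.7 to 240.4) and 225.9 CPM (209.4 to 243.4), a log2 ratio of 0.13 whose interval, -0.12 to 0.38, holds 0. Pck1, which commits carbon to gluconeogenesis, was at 1151 CPM (1079 to 1227) and 734.4 CPM (704.4 to 765.5), a log2 ratio of -0.65 (-0.76 to -0.54). Hpd, an enzyme of tyrosine breakdown, was at 2239 CPM (2137 to 2344) and 1898 CPM (1850 to 1948), a log2 ratio of -0.24 (-0.31 to -0.16). The common hepatocyte genes were 0.45 higher on the log2 scale in cirrhosis hepatocyte-like barcodes. Singly they ranged from -0.34 for Serpina3k to 1.28 for Ahsg, so a scale built on them depends on the genes in it. Counted per UMI of these genes every member's log2 ratio is lower by 0.45. On that scale Pck1 was at -1.10, past 2-fold, as it also was at -1.01 with mitochondrial counts limited to 10% and at -1.13 with mixed barcodes added. Cps1 was at -0.32 (-0.57 to -0.07) on that scale and kept its sign in 6 of 14 alternatives, so no direction is drawn from it.

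**Figure D1:**
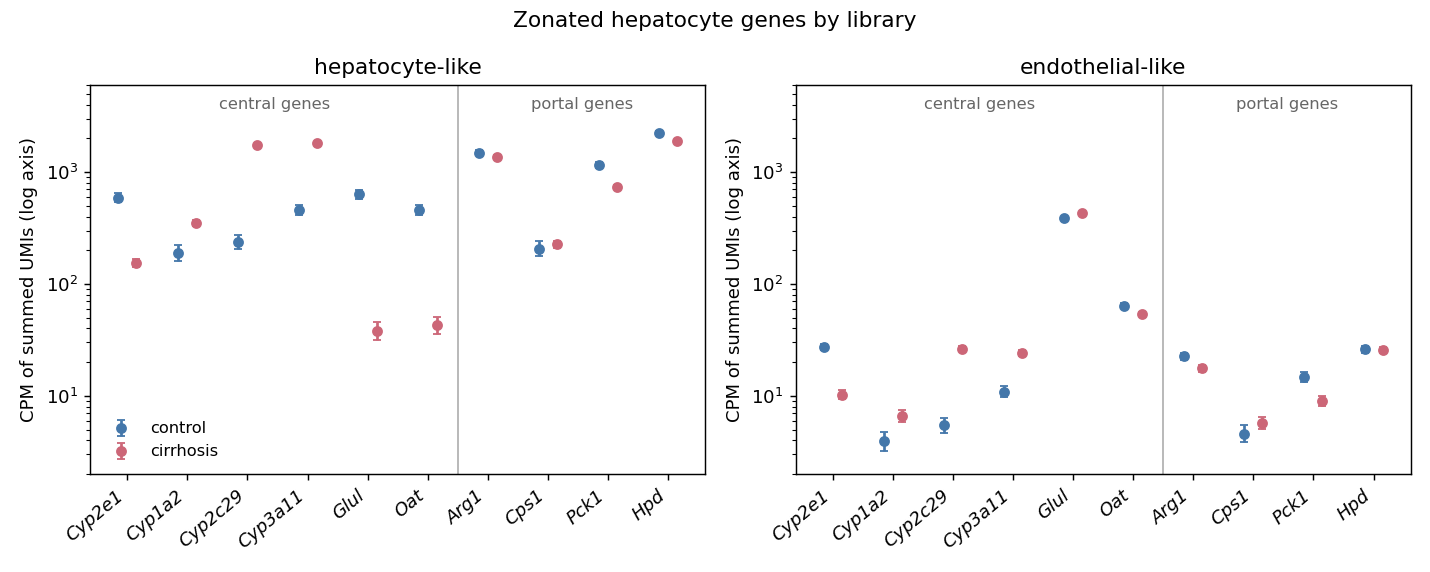
CPM of the summed UMIs of each member (log axis) in hepatocyte-like barcodes, left, and endothelial-like cells, right, with 1 point per library and exact 95% Poisson intervals of counting error. In hepatocyte-like barcodes Glul, Oat and Cyp2e1 lie lower in cirrhosis and Cyp2c29 and Cyp3a11 higher, while in endothelial-like cells Glul stands at 384.7 and 428.7 CPM.

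Within the sub-cluster that holds most cirrhosis barcodes, 36 control barcodes also lay. Among these control barcodes Glul had 12 UMIs, or 201.8 CPM (104.3 to 352.5), against 37.8 CPM in the 1042 cirrhosis barcodes, and Oat had 3 UMIs, or 50.5 CPM (10.4 to 147.5), against 42.7 CPM. Cyp3a11 had 0 UMIs and Cyp2c29 had 1 there, against 1810 and 1750 CPM. Cyp2e1 had 5 UMIs, or 84.1 CPM (27.3 to 196.2), against 154.5 CPM, so its direction was the opposite of that over the class, with intervals that overlap. Oat's intervals overlap as well, and a lower level of Oat or Cyp2e1 in cirrhosis was not detectable within that sub-cluster at these counts. Pck1 was at 1615 CPM (1308 to 1972) in these control barcodes against 729.6 CPM (699.5 to 760.6), past 2-fold. In the other sub-cluster 7 cirrhosis barcodes lay, too few for a comparison.

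The windows printed here run from 250 bases before to 50 bases after the RefSeq start of the pairs of genes that differed the most in each direction, Glul and Oat lower and Cyp2c29 and Cyp3a11 higher, so that their promoters can be read side by side. Letters were searched on both strands for TATAAA (the TATA box), AGGTCA (a nuclear receptor half-site), CTTTGAT (bound by TCF/LEF factors of the Wnt pathway), CAAAGTCCA (HNF4) and GTTAAT (an HNF1 half-site), and matches are in capitals. Sequences are from RefSeq on GRCm38.p6, 5′ to 3′ on the strand of the gene, and 8 of the 10 members had one. The Glul window is chr1:153899679-153899978 (+), Oat chr7:132576349-132576648 (-), Cyp2c29 chr19:39286835-39287134 (+) and Cyp3a11 chr5:145879805-145880104 (-).
Glul: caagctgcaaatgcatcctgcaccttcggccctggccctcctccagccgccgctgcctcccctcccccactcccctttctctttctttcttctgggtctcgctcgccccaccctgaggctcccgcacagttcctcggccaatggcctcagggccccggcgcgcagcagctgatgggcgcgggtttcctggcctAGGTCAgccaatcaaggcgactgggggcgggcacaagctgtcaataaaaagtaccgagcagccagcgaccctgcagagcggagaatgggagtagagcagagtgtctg
Oat: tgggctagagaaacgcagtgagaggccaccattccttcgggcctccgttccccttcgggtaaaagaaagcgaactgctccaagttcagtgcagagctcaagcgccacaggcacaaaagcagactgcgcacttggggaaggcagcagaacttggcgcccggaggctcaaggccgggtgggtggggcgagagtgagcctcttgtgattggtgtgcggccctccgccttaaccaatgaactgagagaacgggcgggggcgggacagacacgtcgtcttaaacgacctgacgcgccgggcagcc
Cyp2c29: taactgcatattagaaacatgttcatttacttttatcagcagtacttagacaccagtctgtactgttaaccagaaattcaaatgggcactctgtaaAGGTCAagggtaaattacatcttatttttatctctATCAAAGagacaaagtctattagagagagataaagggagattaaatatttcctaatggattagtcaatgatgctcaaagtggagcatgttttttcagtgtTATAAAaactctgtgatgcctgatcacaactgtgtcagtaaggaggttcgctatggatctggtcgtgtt
Cyp3a11: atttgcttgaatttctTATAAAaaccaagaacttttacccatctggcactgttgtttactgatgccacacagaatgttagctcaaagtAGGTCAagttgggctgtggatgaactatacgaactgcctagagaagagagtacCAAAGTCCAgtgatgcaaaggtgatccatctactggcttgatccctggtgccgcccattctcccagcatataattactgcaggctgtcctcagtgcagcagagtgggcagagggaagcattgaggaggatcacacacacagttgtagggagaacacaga
The Glul window held AGGTCA once and the Oat window held none of the motifs. Both P450 windows held AGGTCA and TATAAA, with a TCF/LEF match on the opposite strand in Cyp2c29 and an HNF4 match in Cyp3a11. The TATAAA match began at -19 from the RefSeq start in Cyp2c29 and at -234 in Cyp3a11, so these matches do not lie at a like place. Of 32851 RefSeq promoter windows of 300 bases, 13.6% hold TATAAA, 16.3% AGGTCA, 3.73% CTTTGAT, 0.475% CAAAGTCCA and 7.10% GTTAAT. A match is a description of the letters only.

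In the mm10 assembly, GENCODE M21 places Glul on chromosome 1 (153899944 to 153909723, plus strand), overlapped by Teddm2 on the other strand, and Oat on chromosome 7 (132557478 to 132576398, minus strand), overlapped by Fgfr2 on the same strand. Cyp2c29 lies on chromosome 19 (39269405 to 39330713, plus strand), so its RefSeq start lies inside the longer gene model, and Cyp3a11 lies on chromosome 5 (145854426 to 145879964, minus strand). Hpd, on chromosome 5 (123171807 to 123182727, minus strand), is overlapped by Gm26745 and Psmd9. Counts of overlapping genes can share reads.

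In control, Oat UMIs lay largely in barcodes that also held Glul. Of the 83 control barcodes with a Glul UMI, 50 also held Oat (60.2%), and these 83 of 366 barcodes held 331 of the 377 Oat UMIs (87.8%). Oat was at 1285 CPM (1150 to 1431) with a Glul UMI and at 82.2 CPM (60.2 to 109.6) without. Slc1a2, the glutamate transporter of the same cells, had 27 UMIs in these 83 barcodes and 0 in the other 283, where its interval reached 6.59 CPM. Lect2, a secreted protein of central hepatocytes, was at 209.6 CPM with Glul and 28.6 CPM without. All 4 P450 genes were also higher with Glul, with Cyp2e1 at 889.1 against 451.9 CPM, Cyp1a2 at 380.5 against 101.8 CPM, Cyp2c29 at 438.7 against 142.9 CPM and Cyp3a11 at 760.9 against 316.1 CPM. Of the portal genes, Cps1 was lower with Glul, at 73.8 against 267.9 CPM, Arg1 was at 1002 against 1716 CPM and Pck1 at 982.2 against 1229 CPM. Hpd was higher with Glul, at 2520 CPM (2330 to 2721) against 2109 CPM (1991 to 2233).

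In cirrhosis 92 of 1049 barcodes held a Glul UMI, and Oat and Slc1a2 were not at a higher level in them. Oat was at 39.8 CPM (25.2 to 59.7) with a Glul UMI and 43.2 CPM without, and 17 of the 92 barcodes held Oat (18.5%). Slc1a2 had 0 UMIs with Glul and 1 UMI in the whole class, against 27 in control, a log2 ratio of -6.66 with an interval of -12.01 to -4.06. Some other genes did differ with Glul as in control. Cyp2e1 was at 242.0 CPM (203.6 to 285.6) with Glul and 133.3 CPM (119.3 to 148.5) without, Cyp1a2 at 463.4 against 326.4 CPM, Arg1 at 1070 CPM (987.5 to 1158) against 1432 CPM (1386 to 1480) and Pck1 at 529.0 against 782.4 CPM. Hpd, at 1540 against 1982 CPM, and Cyp3a11, at 1523 against 1869 CPM, ran opposite to control. Cyp2c29 at 1812 and 1728 CPM, Cps1 at 236.9 and 223.4 CPM and Lect2 at 309.5 and 277.1 CPM differed less. The barcodes with a Glul UMI were deeper, at a median of 4595 UMIs against 1659, and held more endothelial marker RNA, at 1340 against 605.9 CPM. The control split had 2013 against 1372 UMIs and 3102 against 1961 CPM of endothelial markers. Their part in the result was not tested.

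The share of central genes among the members' UMIs was 33.5% (32.4 to 34.7) in control and 49.5% (48.9 to 50.1) in cirrhosis hepatocyte-like barcodes, a difference of 16.0 percentage points (14.6 to 17.3). Without Glul, Oat and Arg1, which are known from other cell types too, it was 29.0% and 58.6%. Without Cyp2c29 and Cyp3a11 it was 26.9% (25.8 to 28.1) in control and 12.2% (11.7 to 12.7) in cirrhosis, so the higher share in cirrhosis rests on these 2 genes, and the share is no measure of central genes as a group. Per barcode with at least 10 member UMIs, 187 in control and 639 in cirrhosis, the median share was 16.7% in control and 43.8% in cirrhosis. No central UMI was found in 57 of the 187 control barcodes and 23 of the 639 cirrhosis barcodes. Without Cyp2c29 and Cyp3a11 the median was 10.1% in 174 control and 7.69% in 483 cirrhosis barcodes, of which 63 and 145 had no central UMI. In control many barcodes lay at the ends of the scale, with 83 under 10% and 21 from 80% to 90%, and in cirrhosis no bin of 10 points held over 15.2% of them.

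**Figure D2:**
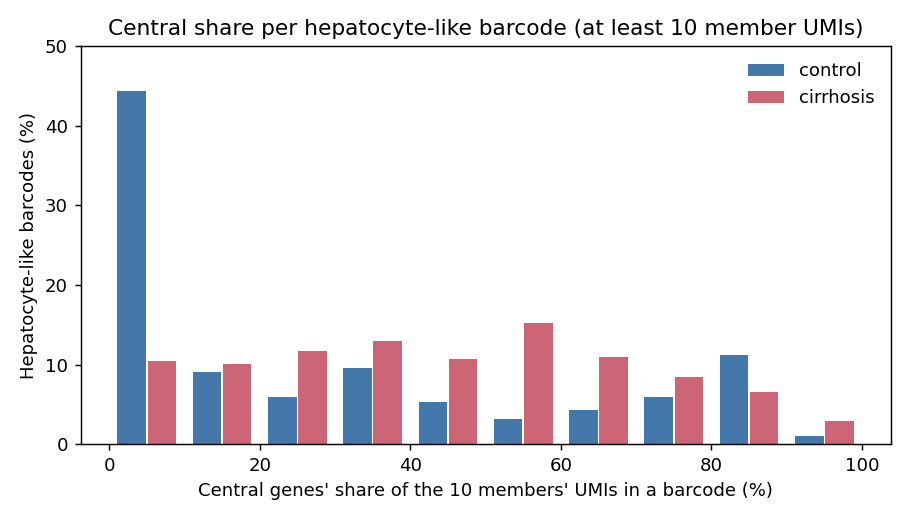
Percent of hepatocyte-like barcodes with at least 10 member UMIs (187 control, 639 cirrhosis) in each bin of 10 points of the central genes' share of the members' UMIs. In control 44.4% of barcodes lie under 10%, and in cirrhosis 10.5% do.

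Barcodes were then ranked within each library by that share, and genes that the ranking did not use were compared between the top and the bottom of the ranking, 62 barcodes each in control and 213 each in cirrhosis. Of the 12626 central UMIs of the cirrhosis class, Cyp2c29 held 5325 and Cyp3a11 5509, so the cirrhosis ranking rests mainly on them. Among the other central genes, Cyp2c37, Cyp2c50 and Cyp2c54 are paralogs that can share reads with Cyp2c29. Of the 31 other central genes, 21 were measured, and 20 were higher at the top in both libraries. Of the 27 other portal genes, 26 were measured, and 22 were lower at the top in both libraries. Over the 3683 genes compared, 25.4% were higher in both and 32.1% lower in both. The median log2 ratio of top over bottom was 1.89 in control and 1.31 in cirrhosis for central genes, and -1.24 and -0.90 for portal genes. The control medians leave out Cyp2c54, Cyp2a5, Lect2 and Gstm3, with 0 UMIs at the bottom, and Aldh1b1, with 0 at the top.

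At the top against the bottom, Cyp2c50, a P450 of the 2C group, was at 560.0 against 14.4 CPM in control and 601.2 against 143.7 CPM in cirrhosis. Rnase4, a secreted ribonuclease, was at 761.6 against 216.7 CPM in control and 484.6 against 235.7 CPM in cirrhosis. Portal-side genes ran the other way: Sds, serine dehydratase, was at 56.0 against 703.0 CPM in control and 214.0 against 771.3 CPM in cirrhosis. Ass1, which makes argininosuccinate in the urea cycle, was at 2016 against 5884 CPM and 3819 against 7756 CPM. Hal, which breaks down histidine, had a log2 ratio of -2.84 in control and -1.61 in cirrhosis. Cyp2f2, a portal P450, ran at -3.31 in control and -0.19 in cirrhosis, and Cyp8b1, the sterol 12-hydroxylase of bile acid synthesis, at 1.44 and -0.46. Depth differed between top and bottom, with means of 2880 and 3349 UMIs in control and 4389 and 3366 in cirrhosis. Endothelial markers took 0.291% and 0.129% of UMIs at the top and bottom in control and 0.0830% and 0.0630% in cirrhosis. Common hepatocyte genes took 8.56% and 10.3% in control and 14.2% and 11.8% in cirrhosis. The part of these in the result was not tested.

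**Figure D3:**
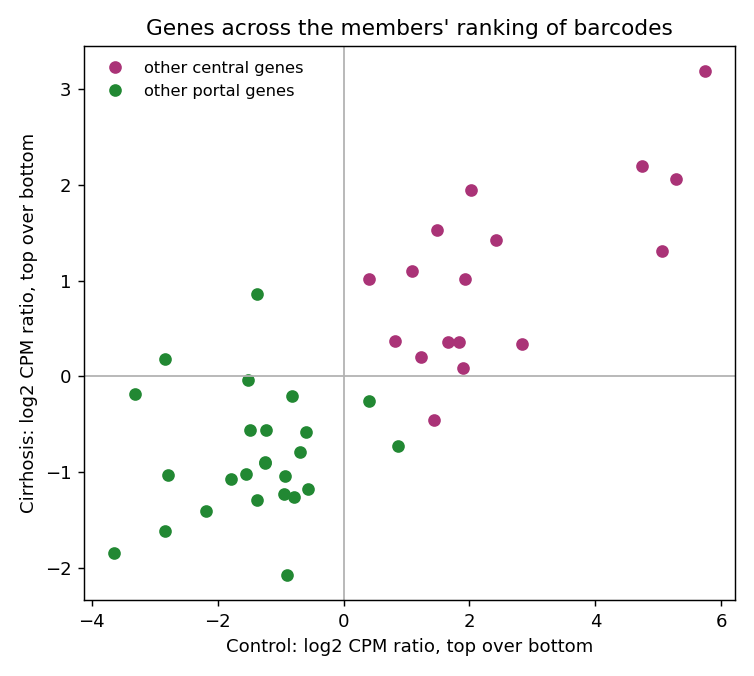
Log2 CPM ratio of the top over the bottom of hepatocyte-like barcodes ranked by the members' central share, control on the horizontal and cirrhosis on the vertical axis, 1 point per other central or other portal gene that has UMIs at both ends. Of the central genes, Cyp8b1 lies under 0 in cirrhosis, at -0.46, and the rest lie above 0 in both libraries, while most portal genes lie below 0 in both.

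Endothelial-like cells held member RNA at levels far under those of hepatocyte-like barcodes, Glul and Oat apart. Glul was at 384.7 CPM (377.6 to 391.9) in control and 428.7 CPM (422.5 to 435.0) in cirrhosis, a log2 ratio of 0.16 (0.12 to 0.19) that is -0.20 per common hepatocyte UMI. Oat was at 64.1 and 54.3 CPM, a log2 ratio of -0.24 (-0.33 to -0.15). Only 4 of the 10 members, Glul, Oat, Arg1 and Hpd, reached the 20 CPM minimum, and 0 of them differed by 2-fold, against 1.75% of 6931 genes at least 2-fold lower and 1.79% at least 2-fold higher. With no minimum, 1 member was at least 2-fold lower and 2 were higher, against 10.4% and 7.81% of the 17262 genes with UMIs in both libraries. Cyp2e1 was at 27.3 CPM (25.5 to 29.3) in control and 10.2 CPM (9.30 to 11.3) in cirrhosis, Cyp2c29 at 5.44 CPM (4.62 to 6.36) and 26.5 CPM, and Cyp3a11 at 10.9 CPM (9.75 to 12.2) and 24.1 CPM (22.6 to 25.6). Those 3 had the sign they had in hepatocyte-like barcodes. The sizes were not stable: Cyp2e1 had a log2 ratio of -1.42, but -0.07 at clustering resolution 1.0 and -0.75 with no cell filter, and Cyp3a11 had 1.14, but 0.28 with the members among the clustering genes. The Mup-led cluster held 80.0% of the control class's Cyp2e1 UMIs, 82 of them in 1 barcode, and the Derl3-led cluster held 76.1% of the cirrhosis class's Cyp2c29 UMIs. Without the Mup-led, Derl3-led and collagen-led clusters, an alternative chosen after seeing the data, Cyp2e1 was at 6.06 and 2.39 CPM, a log2 ratio of -1.34 (-1.75 to -0.95). Cyp2c29 was then at 0.871 and 6.34 CPM, or 2.86 (2.23 to 3.57), and Cyp3a11 at 1.78 and 8.64 CPM, or 2.28 (1.82 to 2.76).

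Carried RNA was then computed for endothelial-like cells. The common hepatocyte genes put hepatocyte RNA at 1.52% of UMIs in control and 1.42% in cirrhosis, and that share of the hepatocyte-like level is the level carried RNA would give. Since different clusters hold most of that RNA in each library, these values describe the summed class and not each cell. Arg1 was 0.998 (0.906 to 1.10) times that level in control and 0.914 (0.844 to 0.988) times in cirrhosis, Hpd 0.769 and 0.959 times, Pck1 0.846 and 0.858 times, Cyp3a11 1.58 and 0.938 times, Cyp2c29 1.52 and 1.07 times, Cyp1a2 1.36 and 1.33 times and Cps1 1.47 and 1.78 times. These 7 members lay within a factor of 2 of the carried level in both libraries, though several of their intervals leave out 1. In control the interval was 1.35 to 1.84 for Cyp3a11, 1.22 to 1.89 for Cyp2c29, 1.16 to 1.86 for Cps1 and 0.706 to 0.838 for Hpd. The cirrhosis interval of Cps1, 1.53 to 2.06, passes 2. Cyp2e1 was above the carried level, at 3.06 times (2.73 to 3.43) in control and 4.68 times (4.10 to 5.35) in cirrhosis. In cirrhosis this was not particular to endothelial-like cells. Cyp2e1 was there at 2.74 times the carried level in Kupffer cell-like, 3.70 in monocyte or myeloid-like and 3.49 in cholangiocyte-like barcodes. In control these classes had it at 1.31, 0.715 and 0.196 times. Other control classes were above the carried level, at 2.89 times (1.38 to 5.36) in plasmacytoid dendritic cell-like and 2.36 (1.64 to 3.29) in mixed barcodes. T or NK cell-like barcodes were at 1.92 times (0.873 to 3.68) in control, and B cell-like and neutrophil-like ones, with 1 UMI each, at 0.874 and 0.664. Large-vessel-like endothelial cells of the control library had Cyp2e1 at 0.558 times (0.115 to 1.64). Glul was at 40.1 and 794 times, the latter against a carried level of 0.540 CPM, and Oat at 9.17 and 89.7 times, so their RNA was not of the hepatocyte-like ratio in these cells. In Kupffer cell-like barcodes, Glul was at 360.9 and 371.2 CPM, in T or NK cell-like ones at 92.5 and 59.2 CPM.

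**Figure D4:**
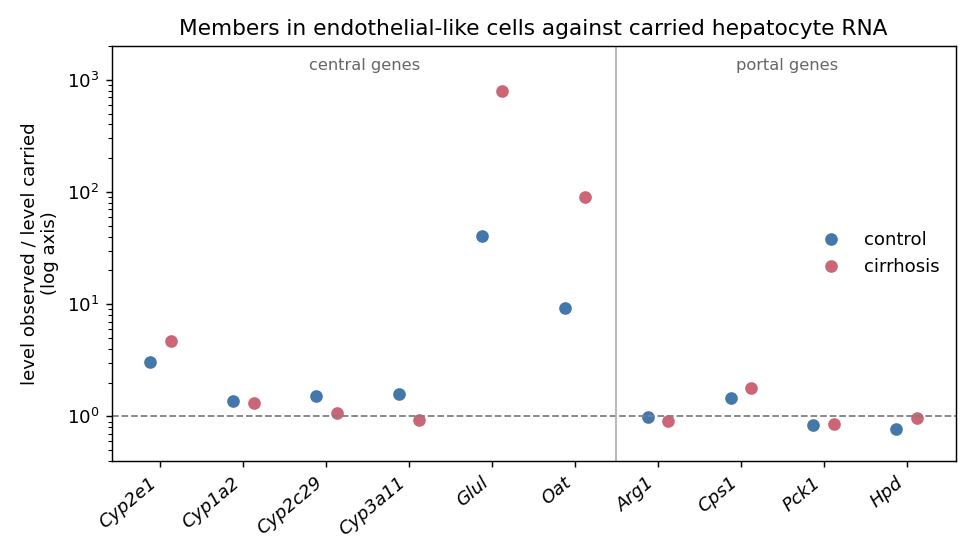
Level observed in endothelial-like cells over the level that carried hepatocyte RNA would give (log axis), 1 point per member and library, with a dashed line at 1. Glul and Oat lie far above the line, Cyp2e1 lies at 3.06 and 4.68, and the other 7 members lie near 1.

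Endothelial Glul was higher on the portal side in both libraries. It was at 231.1 CPM (206.7 to 257.5) in pericentral-like and 570.6 CPM (551.0 to 590.8) in periportal-like endothelial cells of the control library. In cirrhosis it was at 318.7 CPM (305.9 to 331.9) and 602.3 CPM (583.5 to 621.7). In cirrhosis Cyp3a11 was at 26.3 and 25.4 CPM in these zones and Cyp2c29 at 28.2 CPM (24.5 to 32.3) and 21.8 CPM (18.3 to 25.7). Cyp2e1 ran the other way there, at 5.88 and 9.09 CPM, as did Cyp1a2, at 4.51 and 6.74 CPM. Each of these P450 genes was lower in pericentral-like cells of control, which held 3 to 21 UMIs of each. Cyp2e1 was at 14.8 and 33.3 CPM, Cyp1a2 at 4.23 and 4.83, Cyp2c29 at 2.11 and 6.98 and Cyp3a11 at 6.34 and 11.4. Hepatocyte RNA was put at 1.06% and 2.59% of UMIs in these control zones and 1.18% and 1.57% in cirrhosis. Its part was not tested. The central share of member UMIs in pericentral-like minus periportal-like cells was -0.87 points (-4.17 to 2.08) in control and -3.51 points (-4.83 to -2.22) in cirrhosis. Without Glul, Oat and Arg1 the difference in cirrhosis was 4.33 points (-0.82 to 9.48), and with all 10 genes it was above 0 under several other settings, so no direction is drawn from it.

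The other central genes, taken from a list of 31, did not follow 1 direction in hepatocyte-like barcodes. Of 22 measured, 4 were at least 2-fold lower and 5 at least 2-fold higher, with a median log2 ratio of 0.24. Over all 4392 genes, 9.45% were at least 2-fold lower and 4.96% at least 2-fold higher. Gstm3, a glutathione transferase, was at 23.2 CPM in control and 630.3 CPM in cirrhosis (4.76). Cyp7a1, the rate-limiting enzyme of bile acid synthesis, is outside the 22 because its mean was under the minimum, at 4.89 CPM from 4 UMIs in control and 32.7 CPM in cirrhosis, 2.74 with an interval of 1.34 to 4.65. Nr1i3, the receptor CAR that is known to drive Cyp2b and Cyp2c genes, was at 77.1 and 10.2 CPM (-2.92), and Por, the electron donor of the P450 enzymes, at 36.7 and 88.4 CPM (1.27). Lect2 was at 85.6 and 283.2 CPM (1.73), while Nr1i3 and Slc1a2, which is also outside the 22, were lower, so genes known from the cells next to the central vein differed in direction. Of the 27 other portal genes, 26 were measured, with 2 at least 2-fold lower and 4 higher, against the same shares of all genes, and a median log2 ratio of 0.07. Apoa4, an apolipoprotein, was at 53.8 and 453.5 CPM (3.07), Aldh1b1, an aldehyde dehydrogenase, at 50.2 and 230.5 CPM (2.20), and Pigr, which carries immunoglobulin A, at 606.8 and 250.8 CPM (-1.27). The 8 Wnt target genes were all under the 20 CPM minimum in these barcodes, so none was counted. Below that minimum, Nkd1 had 15 UMIs in control and 6 in cirrhosis, a log2 ratio of -3.22 (-4.88 to -1.78), and the intervals of the others hold 0. Tat, which starts tyrosine breakdown ahead of Hpd, was at 582.3 and 279.6 CPM (-1.06).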

How the data were processed

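The deposited tables hold UMI counts per gene and barcode, as whole numbers with no normalization. The submitters' processing notes name Cell Ranger and mm10, and a version is not given in the sources used here. Per the labels, each library came from pooled mice. Barcodes needed 300 genes, under 20% mitochondrial and at most 5% erythroid counts, and the highest doublet scores (0.8% per 1000 barcodes) were removed, leaving 4953 control and 7191 cirrhosis barcodes. Cells were clustered with scanpy 1.11.5 without the members and haemoglobin genes, at resolution 0.5, and hepatocyte-led clusters again at 0.3. That second clustering and its limits, with hepatocyte markers at least 10 times endothelial markers, were chosen after seeing the data, and the members and gene lists were chosen with earlier results of these data known.

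UMIs were summed per class and library and given as CPM of that sum. Intervals are exact: Poisson for levels, binomial for shares and conditional for ratios, at 95%. In simulated counts over 4392 genes, the ratio interval held the true value in 95.9% of 4192 genes with no change and in 95.0% of 100 changed 2-fold. Those counts were drawn as Poisson from the summed levels, which the interval assumes, so this checks the calculation only. Clumping of UMIs in single barcodes was not simulated, and the intervals can be too narrow where it occurs. Genes needed a mean of 20 CPM, and a member was counted as different at 2-fold. Named genes were all 10 members, up to 4 genes of each other list with the largest ratios at 20 CPM in either library, and the leading genes of the ranking, with further list members chosen after their values were seen. For Cyp2e1 and Cps1 the most alike genes in 1049 barcodes were Lect2 (Spearman 0.34) and Apob (0.27), weak values in sparse counts. Carried RNA was estimated from the common hepatocyte genes.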

Additional observations from a re-analysis of the deposited data

How the results depend on the processing

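No paired analysis was possible because each group had 1 library. In hepatocyte-like barcodes, Glul, Oat, Cyp2c29 and Cyp3a11 kept their 2-fold direction in 14 of 14 alternatives, with Glul between -4.78 and -2.32, Oat between -3.89 and -2.28, Cyp2c29 between 2.36 and 3.49 and Cyp3a11 between 1.53 and 2.56. Cyp2e1 kept it in 13 of 14, at -0.67 among barcodes with no endothelial marker UMI. Hpd was at 0.041 with classes by marker limits. The hepatocyte-like central share difference, 16.0 points, was 14.3 with mitochondrial counts under 10%, 12.0 with doublets kept, 11.6 with members among the clustering genes, 17.9 with marker limits, 12.5 when thinned, 21.4 with no endothelial marker UMI, 20.6 without Cyp2e1, 29.6 without Glul, Oat and Arg1, and, under alternatives chosen after seeing the data, 18.4 with mixed barcodes added and -14.7 without Cyp2c29 and Cyp3a11. In endothelial-like cells, 1 member was lower and 2 were higher with no minimum on CPM, against 10.4% and 7.81% of genes. Their central share was 87.9% in control and 90.4% in cirrhosis. Glul and Oat held 11098 and 1849 of its 14321 central UMIs in control and 17997 and 2279 of 23107 in cirrhosis, so it is mainly a measure of these 2 genes. The difference in this share was 0.20 with no cell filter, 6.88 with mitochondrial counts under 10%, 7.75 with doublets kept, -1.40 at resolution 1.0, 7.04 with members in clustering, 0.52 with marker limits, -0.42 when thinned, 11.3 without Glul, Oat and Arg1 and -0.29 without the Mup-led, Derl3-led and collagen-led clusters, so no direction is drawn from it. The zone difference in control was -4.27 with mitochondrial counts under 10%, -4.45 at resolution 1.0 and -4.95 without the 3 genes. In cirrhosis it was -0.95 with no cell filter, 0.93 with mitochondrial counts under 10%, 1.23 with doublets kept, 0.38 with members in clustering, 4.33 without the 3 genes and 1.09 in cells under 0.5% hepatocyte UMIs. Endothelial-like log2 ratios with an interval that leaves out 0 and that changed sign were Glul at -0.20 per common hepatocyte UMI, Arg1 at 0.030 (mean per cell), 0.042 (no filter), 0.33 (resolution 1.0), 0.051 (marker limits) and 0.28 (without the 3 clusters), Cyp1a2 at -0.027 (mitochondrial), -0.60 (doublets kept) and -0.47 (members in clustering), and Pck1 at 0.012 (resolution 1.0) and 0.18 (without the 3 clusters). Of the others, Hpd kept its sign in 7 of 15 alternatives, between -1.47 and 0.79, and Cps1 in 11 of 15, between -1.01 and 1.30. The cause was not tested. Depth limits members with few UMIs, such as Cps1, and counting intervals cover no difference between mice.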

Other observations

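Acute phase genes, which hepatocytes make in inflammation, were higher in the cirrhosis library: of 12 listed, 11 were measured in hepatocyte-like barcodes and 11 had a higher level, 7 of them at least 2-fold, with a median log2 ratio of 1.19 against -0.03 over all genes. Of all 4392 genes, 2089 had a higher level and 4.96% were at least 2-fold higher. Of the 11 acute phase genes, Crp had an interval that holds 0, from -0.00057 to 0.65. Saa3, under the minimum, was at 9.79 and 8.84 CPM, a log2 ratio of -0.15 (-1.32 to 1.20). Lcn2, an iron-siderophore binding protein, was at 17.1 CPM in control and 609.7 CPM in cirrhosis (5.15). Orm2, an acid glycoprotein, was at 12.2 and 155.5 CPM (3.67), Saa2, a serum amyloid, at 9.79 and 88.7 CPM (3.18), and Hamp, the iron hormone hepcidin, at 605.5 and 3045 CPM (2.33). The common hepatocyte genes were higher by 0.45 in the same barcodes.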
